A study of Homo sapiens with 9 samples.

Results

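Lymphotoxin, TNF (tumor necrosis factor) and the receptors and ligands of the TNF superfamily that act in B cells are described here in MEC1, an established cell line derived from chronic lymphocytic leukemia (CLL). The 10 genes (LTA, LTB, TNF, CD40, CD27, CD70, TNFRSF13B, TNFRSF13C, TNFSF13B and TNFRSF1B) were taken by their symbols from the 59050 gene symbols of the count table, and all 10 were found in it. RNA was sequenced from 9 samples of the line, in groups of 3: cells in conventional 2D culture, and cells 3D bioprinted in a hydrogel matrix and collected at day 7 (3D_7d) or at day 14 (3D_14d). All samples are the same line under the label MEC1, their titles share the prefix MECPGK, which the labels do not explain, and no genetic change or drug is named. No label says that replicates came from separate cultures, so the p-values measure the spread between these samples. Each sample held between 54662799 and 85968686 counted reads, and 13463 of the 51726 genes with at least 1 count were tested, among them all 10 members.

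Ligands of this superfamily are made mostly as membrane proteins that assemble in threes and cluster their receptors on a neighboring or the same cell. The receptors recruit TRAF adaptors and death-domain proteins, and most of them lead to NF-kappa-B, a transcription factor that keeps B cells alive and activated. In lymphoid tissue, lymphotoxin made by B cells organizes follicles, whereas CD40, the CD27 and CD70 pair and the BAFF receptors carry help and survival signals to B cells, including CLL cells.

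LTA, TNF and LTB, which encode lymphotoxin alpha, TNF and lymphotoxin beta, lie side by side in the class III region of the major histocompatibility complex. In GRCh38 coordinates, the exons of LTA in the count table span chr6:31572054-31574324 on the plus strand, those of TNF span chr6:31575565-31578336 on the plus strand, and those of LTB span chr6:31580555-31582427 on the minus strand. LTA and TNF are separated by 1240 bases, TNF and LTB by 2218 bases, and the whole stretch takes 10374 bases. None of the 3 shared exonic bases with another gene of the table.

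Because the 3 neighbors are compared below, the bases before a transcription start of each are shown, from RefSeq on GRCh38.p14, 5′ to 3′ along the gene. Capitals mark matches to the NF-kappa-B consensus site or to TATAAA, searched on both strands. The window of LTB is chr6:31582426-31582675 (minus strand), that of TNF is chr6:31575315-31575564 (plus strand) and that of LTA is chr6:31572039-31572288 (plus strand). In LTA, 235 of the 250 bases also lie in its own exons, since another transcript starts further upstream, so only 30 bases around each match are shown, chr6:31572176-31572205 and chr6:31572246-31572275.
LTB: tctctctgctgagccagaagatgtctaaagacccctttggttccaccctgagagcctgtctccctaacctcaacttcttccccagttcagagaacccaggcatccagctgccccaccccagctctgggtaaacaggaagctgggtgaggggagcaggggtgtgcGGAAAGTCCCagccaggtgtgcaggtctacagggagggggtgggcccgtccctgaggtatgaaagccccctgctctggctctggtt
TNF: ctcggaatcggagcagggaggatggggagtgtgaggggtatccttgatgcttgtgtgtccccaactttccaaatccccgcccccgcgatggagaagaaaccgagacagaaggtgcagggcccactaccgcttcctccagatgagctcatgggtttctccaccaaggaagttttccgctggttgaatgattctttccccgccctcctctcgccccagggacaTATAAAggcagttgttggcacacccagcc
LTA, NF-kappa-B match: ctaagccctgGGGGCTTCCCcgggccccag
LTA, TATAAA match: tgccgcttcctcTATAAAgggacctgagcg

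The NF-kappa-B consensus matched in LTB between 86 and 77 bases before the start, on the opposite strand, and in LTA between 103 and 94 bases before it, and had no match in the TNF window. TATAAA stood 29 to 24 bases before the start of TNF and 31 to 26 bases before that of LTA, and had no match in the LTB window. No matches overlapped. Among 35116 windows of this length, 5.21% held an NF-kappa-B match and 10.7% held TATAAA. These are matches of letters, and binding was not measured.

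At day 7, 8 of the 10 genes differed from 2D with an adjusted p of at most 0.05 (edgeR quasi-likelihood test, Benjamini-Hochberg adjusted, as for all adjusted p-values below). LTA, LTB, TNF and CD27 were higher, and CD40, CD70, TNFRSF13C and TNFSF13B were lower. At day 14, the 4 genes above 2D were LTA, LTB, CD27 and TNFRSF1B, and 0 were below it. The 0 was the same for unadjusted p-values under 0.05 and with DESeq2.

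Of all tested genes, 43.4% differed from 2D at day 7, 22.2% higher and 21.2% lower, against 4 higher and 4 lower of the 10 members. At day 14, 36.2% of all genes differed, 19% higher and 17.2% lower, against 4 and 0 members. The samples of the groups did not overlap for 9 members at day 7, where 64.6% of all genes did not overlap, and for 6 members at day 14, where 49.7% did not. The median log2 fold change of the members was 0.23 at day 7 and 0.28 at day 14, against -0.004 and 0.02 over all tested genes. Both times are set against the same 3 samples in 2D. The labels give no day of culture for these, so time in culture and culture method cannot be told apart.

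Between the 3D cultures, CD27, CD70 and TNFRSF13C were higher at day 14 than at day 7 and TNF was lower, so that 4 of the 10 members differed. Over all tested genes, 28.1% differed, 14.5% higher and 13.6% lower. The samples did not overlap for 4 members and for 39.3% of all genes, and the median log2 fold change was 0.25 for the members and -0.001 for all genes.

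**Figure D1:**
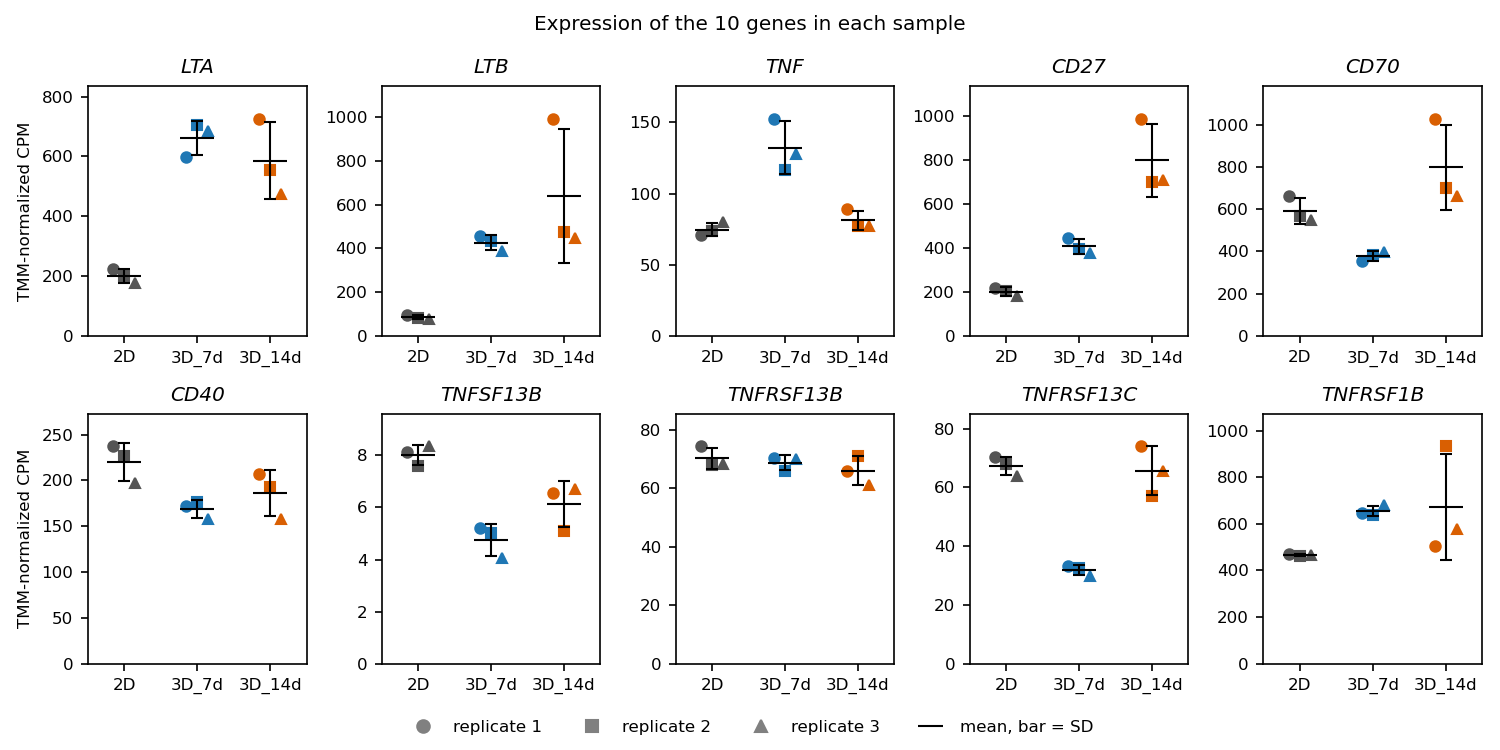
TMM-normalized CPM (reads of a gene relative to the scaled library size) of the 10 genes, 1 panel per gene, with the samples of 2D, 3D_7d and 3D_14d on the x axis. Symbols are replicates, and bars give the mean and SD of 3 samples. LTA, LTB and CD27 lay above 2D in every 3D sample, TNFRSF13C was low in the 3 samples at day 7 alone, and replicate 1 of day 14 was highest for LTB, CD27 and CD70.

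The RNA of the scaffolds was extracted with TRIzol, DNase and a column, and that of 2D cells with the column kit alone, so 2D and 3D cannot be told apart from the extraction, whereas both 3D groups had the same one. In these bulk samples, fewer cells with a transcript and less of it per cell cannot be told apart either. Replicate 1 of day 14 stood apart from the other day 14 samples, with a score of 75.7 on the second principal component against 25.3 and 29.9, and members' results that rest on it are given with and without it. Of the B-cell markers, MS4A1 averaged 841 (2D), 1520 (day 7) and 1070 CPM (day 14), and CD79A averaged 509, 630 and 1310 CPM. The 8 T-cell markers summed to 604 to 660, 705 to 743 and 786 to 1100 CPM, of which TRAC and LCK made up nearly all, while CD3D and CD3G had at most 2 and 3 reads in any sample. The 8 monocyte markers summed to at most 1.04 CPM, and none passed the filter. The 6 NK-cell markers summed to 3.52 to 4.40, 3.27 to 4.48 and 8.18 to 11.6 CPM (KLRD1 averaged 0.553, 2.31 and 4.71 CPM, NKG7 1.66, 0.424 and 1.08, and KLRF1 1.41, 0.910 and 2.82). The 6 stromal markers summed to 10.3 to 11.5, 2.36 to 5.33 and 2.68 to 8.91 CPM. The 6 plasma-cell markers summed to 1410 to 1420, 1530 to 1690 and 1280 to 1400 CPM, but single ones moved in opposite directions. From 2D to day 7, IRF4 (386 to 808 CPM) and PRDM1 (20 to 49.9) were higher, and MZB1 (309 to 82.6) and SDC1 (37.8 to 17.1) were lower. The part of these markers' changes in the results below was not tested.

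CPM values below are scaled by TMM, which corrects the library size for the composition of the RNA, and each fold change is a log2 difference with its standard error. Scaling by total counts alone shifted the all-gene median by -0.16 (day 7) and -0.21 (day 14) on the log2 scale. The share of all tested genes that were higher and lower then became 16% and 26.6% at day 7 and 11.9% and 24.1% at day 14. The members changed relative to those shifts: at day 14, TNFRSF1B was no longer called and CD40 was lower, giving 3 higher and 1 lower.

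LTA encodes lymphotoxin alpha, which is secreted as a trimer or held at the membrane by lymphotoxin beta. LTA was at 223, 200.4 and 177 CPM in the 3 samples in 2D, at 597.5, 704.5 and 686 CPM at day 7 and at 727, 556 and 474 CPM at day 14. Every 3D sample stood above every 2D sample, and the 3D groups overlapped. LTA was 3.31 times as high at day 7 as in 2D (log2 fold change 1.73 ± 0.17, adjusted p = 1.81e-05) and 2.92 times as high at day 14 (1.55 ± 0.17, adjusted p = 5.11e-05). Without replicate 1 of day 14, the latter was 1.37 ± 0.13. Day 14 and day 7 differed by -0.18 ± 0.17 (95% interval -0.55 to 0.19, adjusted p = 0.452).

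LTB encodes lymphotoxin beta, the subunit that anchors lymphotoxin to the cell surface. LTB was at 96.6, 81.8 and 79.0 CPM in 2D, at 458, 434 and 389.8 CPM at day 7 and at 995, 476 and 447 CPM at day 14. The 2D samples were low throughout, and 1 of the 3 samples at day 14 stood far above the other two, 2.15 times their mean. LTB had the largest fold change among the members at both times, 4.98-fold at day 7 (log2 fold change 2.32 ± 0.26, adjusted p = 3.88e-05) and 7.45-fold at day 14 (2.90 ± 0.27, adjusted p = 1.67e-05). Without that sample, the day 14 value was 2.43 ± 0.13 (adjusted p = 3.22e-07).

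The difference between day 14 and day 7 in LTB was 0.58 ± 0.25 (adjusted p = 0.102), and the groups overlapped. It fell to 0.13 ± 0.13 without replicate 1 of day 14, and passed the threshold without replicate 2 (0.76, adjusted p = 0.045) or replicate 3 (0.79, adjusted p = 0.0395) of that group.

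TNF encodes the founding ligand of the superfamily, a membrane trimer released by cleavage. TNF was at 70.6, 73.3 and 79.9 CPM in 2D, at 153, 116 and 128 CPM at day 7 and at 89.1, 77.5 and 77.2 CPM at day 14. The day 7 samples were the 3 highest, and the day 14 samples overlapped those in 2D. TNF rose 1.77-fold at day 7 (log2 fold change 0.83 ± 0.14, adjusted p = 0.000666) and was lower at day 14 than at day 7 (-0.70 ± 0.14, adjusted p = 0.0042). At day 14, the difference from 2D was 0.12 ± 0.14 (95% interval -0.19 to 0.43), with the opposite sign (-0.09) under total-count scaling.

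Of the 3 neighboring ligand genes, the pair with higher levels at both times was therefore LTA and LTB, while TNF passed the test against 2D at day 7 and not at day 14, and fell between the times. Per exon length, the ratio of LTB to LTA was 0.794, 0.749 and 0.820 in the 3 samples in 2D, 1.41, 1.13 and 1.04 at day 7 and 2.51, 1.57 and 1.73 at day 14. The 3 groups did not overlap in this ratio. Lymphotoxin at the membrane contains both subunits, and the ratio describes RNA alone. Deposited exon lengths were 1651 bases for LTA and 899 for LTB. With those of GENCODE 44, 1737 and 1535 bases, the medians fell from 0.794, 1.13 and 1.73 to 0.489, 0.697 and 1.07, in the same order.

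**Figure D2:**
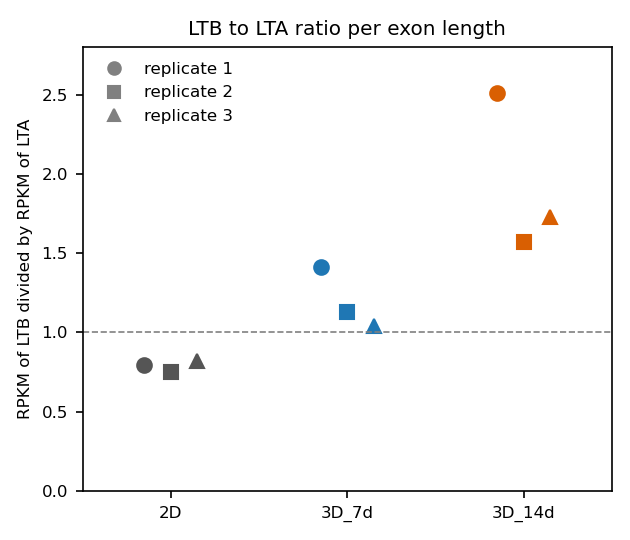
Ratio of LTB to LTA in RPKM (CPM per kilobase of exon) in each of the 9 samples, grouped by culture, with symbols for replicates and a dashed line at equal levels. The 2D samples lay at 0.749 to 0.820, those of day 7 at 1.04 to 1.41 and those of day 14 at 1.57 to 2.51.

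The tested genes flanking LTA, TNF and LTB in the class III region had negative log2 fold changes at day 7 (-2.76 to -0.10). From day 7 to day 14, their changes were positive, from 0.55 for NFKBIL1 to 2.16 for AIF1. At day 14 against 2D, they had both signs (-0.60 to 1.01). In none of these contrasts were all of them called. AIF1, which encodes an actin-binding protein of macrophages and some lymphoid cells, averaged 27.8 ± 5.39 CPM (2D), 4.10 ± 0.551 (day 7) and 18.3 ± 4.95 (day 14; SD, n = 3), and its day 7 log2 fold change was -2.76 ± 0.24 (adjusted p = 8.69e-06). NCR3, which encodes the NK receptor NKp30, was lower at day 7 (-0.97 ± 0.23, adjusted p = 0.00458) and rose again by day 14 (1.38 ± 0.23 over day 7, adjusted p = 0.00145). LST1, which encodes a small leukocyte protein, averaged 1.70 CPM in 2D and 3.42 at day 14 (1.01 ± 0.34, adjusted p = 0.0326), but that call was lost without any 1 sample of 2D (adjusted p = 0.0841 to 0.123), without replicate 1 of day 14 (0.69, adjusted p = 0.114) and with total-count scaling (0.79, adjusted p = 0.0736). NFKBIL1 and ATP6V1G2 were called at neither time against 2D. DDX39B had at most 4 reads in any sample, and 89.3% of its exonic bases are shared with other genes, so its level was not read.

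CD27 is a costimulatory receptor of memory B cells and a surface marker of CLL cells. CD27 was at 218, 205 and 180.3 CPM in 2D, at 446, 396 and 377 CPM at day 7 and at 987, 698 and 707 CPM at day 14. The 3 groups stood in steps with no overlap. CD27 was 2.02 times as high as in 2D at day 7 (log2 fold change 1.01 ± 0.16, adjusted p = 0.000403) and 3.96 times at day 14 (1.99 ± 0.17, adjusted p = 9.45e-06), and day 14 exceeded day 7 by 0.97 ± 0.16 (adjusted p = 0.00142). Without replicate 1 of day 14, the last 2 values were 1.81 and 0.81. CD27 shares 287 of its exonic bases (21.4%) with CD27-AS1 on the opposite strand. The strand setting of the counting is not given in the sources used here, so a part of its reads is uncertain. CD27-AS1 had at most 644 reads, which does not show how reads of the shared bases were assigned.

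CD70 is the ligand of CD27. CD70 was at 663, 568 and 548 CPM in 2D, at 353, 382 and 399 CPM at day 7 and at 1029, 701 and 664 CPM at day 14. It was lowest at day 7, and no groups overlapped, although 2D reached 662.8 and day 14 began at 663.8 CPM. CD70 fell 1.57-fold at day 7 (log2 fold change -0.65 ± 0.17, adjusted p = 0.00927) and was 2.11 times as high at day 14 as at day 7 (1.08 ± 0.17, adjusted p = 0.00115).

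Against 2D, CD70 at day 14 differed by 0.43 ± 0.17 (adjusted p = 0.0693), by 0.21 without replicate 1 of that group, and past the threshold without replicate 2 (0.52, adjusted p = 0.0446) or replicate 3 (0.55, adjusted p = 0.0279). Receptor and ligand thus differed in direction at day 7, CD27 being higher and CD70 lower than in 2D, and both were higher at day 14 than at day 7.

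CD40 receives the T-cell signal that drives B-cell activation and germinal centers. CD40 was at 237, 227 and 197 CPM in 2D, at 172, 176 and 158 CPM at day 7 and at 207, 193 and 158 CPM at day 14. The day 7 samples were all below those in 2D, and the day 14 samples overlapped both groups. The log2 fold change was -0.39 ± 0.14 at day 7 (adjusted p = 0.0452) and -0.24 ± 0.14 at day 14 (95% interval -0.56 to 0.07, adjusted p = 0.204). The call at day 7 was lost without replicate 1 (adjusted p = 0.117) or 2 (0.0965) of 2D and without replicate 1 (0.0662), 2 (0.0696) or 3 (0.113) of day 7, with log2 fold changes between -0.45 and -0.37. It was also lost with filterByExpr (adjusted p = 0.0774) or without a filter (0.254). CD40LG, which encodes its ligand, had between 0 and 5 reads in every sample (this gene was chosen after its values were seen).

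TNFSF13B encodes BAFF, a survival factor that myeloid and stromal cells supply to B cells. TNFSF13B was the member with the lowest level, at 8.13, 7.61 and 8.35 CPM in 2D, at 5.21, 5.004 and 4.07 CPM at day 7 and at 6.56, 5.10 and 6.73 CPM at day 14. All 3D samples lay below all 2D samples. The log2 fold change was -0.75 ± 0.22 (adjusted p = 0.0142) at the earlier and -0.39 ± 0.22 (adjusted p = 0.178) at the later time. The call at day 7 was lost without replicate 3 of day 7 (-0.70, adjusted p = 0.0511) and without a filter (adjusted p = 0.0527).

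TNFRSF13C encodes BAFF-R, the receptor that binds BAFF alone and maintains mature B cells. TNFRSF13C was at 70.2, 67.8 and 63.8 CPM in 2D, at 33.2, 32.5 and 29.9 CPM at day 7 and at 74.0, 57.2 and 65.7 CPM at day 14. The day 7 samples stood well below all others, and the day 14 samples overlapped those in 2D. It fell 2.11-fold at day 7 (log2 fold change -1.08 ± 0.14, adjusted p = 0.000112) and was higher at day 14 than at day 7 by 1.04 ± 0.14 (adjusted p = 0.000467). The day 14 value against 2D was -0.04 ± 0.14 (95% interval -0.34 to 0.27), and 0.06 without replicate 2 of day 14.

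TNFRSF13B encodes TACI, which binds BAFF and APRIL and tempers B-cell expansion. TNFRSF13B was at 74.3, 67.9 and 68.4 CPM in 2D, at 70.3, 65.9 and 70.1 CPM at day 7 and at 66.0, 71.0 and 61.0 CPM at day 14. All groups overlapped. The log2 fold changes were -0.03 ± 0.13 at day 7 (95% interval -0.31 to 0.25) and -0.09 ± 0.13 at day 14 (-0.37 to 0.19), the narrowest intervals among the members. TNFRSF13B shares 7.47% of its exonic bases with TBC1D27P, which lies on the same strand and had at most 3159 reads in any sample. A part of the reads of TNFRSF13B is therefore uncertain. TNFRSF17, which encodes BCMA and was also chosen after its values were seen, averaged 62.0 (2D), 73.4 (day 7) and 85.0 CPM (day 14), with adjusted p-values of 0.32 and 0.0778 against 2D.

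TNFRSF1B encodes TNFR2, the TNF receptor of lymphoid cells that binds membrane TNF and lymphotoxin alpha. TNFRSF1B was at 472, 460.5 and 468 CPM in 2D, at 648, 639 and 682 CPM at day 7 and at 507, 934 and 579 CPM at day 14. All 3D samples exceeded all 2D samples, but 1 sample at day 14 stood far above the other two. The log2 fold change was 0.49 ± 0.19 (adjusted p = 0.0565) at the earlier and 0.53 ± 0.19 (adjusted p = 0.0494) at the later time, on either side of the threshold.

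Without replicate 2 of day 14, TNFRSF1B at day 14 differed from 2D by 0.22 (adjusted p = 0.18) and the day 7 value was called (0.49, adjusted p = 0.00398). Without replicate 1 of day 14, both were called, 0.48 (adjusted p = 0.0153) at day 7 and 0.70 (adjusted p = 0.0047) at day 14. The day 14 call was also lost without any 1 sample of 2D (adjusted p = 0.121 to 0.147) or of day 7 (0.0686 to 0.0766). TNFRSF1A, which encodes TNFR1, averaged 19.8 (2D), 20.3 (day 7) and 27.0 CPM (day 14), with no call (adjusted p = 0.913 and 0.0871; chosen after its values were seen).

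**Figure D3:**
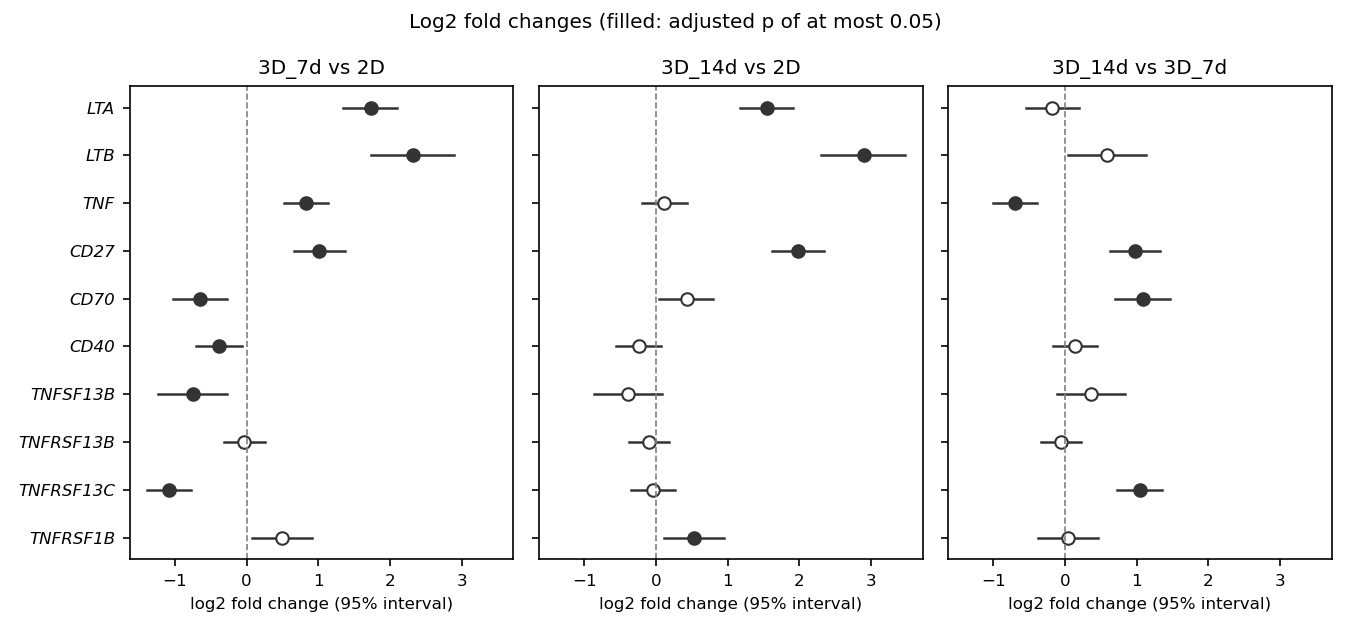
Log2 fold changes of the 10 genes in the 3 contrasts, with 95% intervals from edgeR's quasi-likelihood test; filled points passed an adjusted p of 0.05. LTA, LTB and CD27 lay right of zero against 2D at both times. TNFRSF13C and CD70 lay left of zero at day 7 and right of zero between day 7 and day 14.

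Compared per exon length (RPKM), CD70 was the highest member in 2D at 491 ± 50.9 (SD, n = 3), followed by CD27 at 150.3 ± 14.3. TNFRSF1B (126 ± 1.59), LTA (121 ± 14.1), CD40 (117 ± 11.1) and LTB (95.4 ± 10.5) followed, and each of them overlapped the next. TNFRSF13B (46.8 ± 2.38) and TNF (44.5 ± 2.82) overlapped each other, and TNFRSF13C (17.1 ± 0.816) and TNFSF13B (3.01 ± 0.143) were lowest. At day 14, LTB (711 ± 343), CD70 (661 ± 167) and CD27 (596 ± 123) were the 3 highest and overlapped one another. Their order rested on replicate 1, without which LTB averaged 514, below CD70 at 565 and CD27 at 525. In that group, LTA (355 ± 78.2) and TNFRSF1B (182 ± 61.8) came next without overlap. Among the tested genes, the percentile of LTB was 94.4 in 2D and 99.6 at day 14, and that of TNFSF13B was 37.5 and 33.4.

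Over the 9 samples, log2 CPM of LTA and LTB had a Pearson r of 0.955, LTB and CD27 of 0.94, and CD70 and TNFRSF13C of 0.871. TNF and TNFRSF13C had the most negative value, -0.907. These are descriptions, since the samples form 3 groups and share libraries and scaling. The genes most like LTA over the 9 samples were EIF2B2 (r = 0.995), SPIB (0.994) and DUSP14 (0.992), among 240 genes over 0.95. SPIB, which encodes an ETS factor of B cells, averaged 26.8 (2D), 77.6 (day 7) and 75.1 CPM (day 14). Those most like CD27 were LINC00226 (r = 0.996), OSTF1 (0.991) and DBNDD2 (0.989), among 107 over 0.95, and OSTF1 averaged 77.8, 101 and 133 CPM.

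In the rest of the superfamily, 36 of 37 listed ligands and receptors were in the count table, and 23 of them passed the filter. The symbol LTBR, of the lymphotoxin beta receptor, was absent from the table, so its level could not be read. Of the 23, 2 were higher and 5 lower than in 2D at day 7, and 5 were higher and 7 lower at day 14. Those called made up 30.4% and 52.2% of these 23 genes, against 43.4% and 36.2% of all tested genes. Their median log2 fold change was -0.21 at day 7 and 0.17 at day 14. TNFRSF14 encodes HVEM, a receptor for LIGHT and lymphotoxin alpha, and was at 200, 200 and 212 CPM in the 2D samples, 83.4, 55.3 and 53.7 at day 7 and 97.3, 92.9 and 84.5 at day 14. All 3D samples of TNFRSF14 were lower, with log2 fold changes of -1.67 ± 0.17 (adjusted p = 2.29e-05) and -1.16 ± 0.17 (adjusted p = 0.000324). TNFRSF4, which encodes OX40, fell by 1.71 on the log2 scale at day 7 and its ligand gene TNFSF4 rose by 1.87, from 0.393 to 1.47 CPM. TNFRSF19 rose by 0.87. The TNFSF4 call rested on few reads (4 in replicate 1 of 2D): it was lost without replicate 1 (adjusted p = 0.0641) or 3 (0.0561) of 2D, and without any 1 sample of day 7 the gene no longer passed the filter. At day 14, TNFRSF9, which encodes 4-1BB, was lower (-1.46 ± 0.27), while TNFSF10, which encodes TRAIL (0.69 ± 0.18), and TNFSF13, which encodes APRIL (1.68 ± 0.45), were higher. Without replicate 3 of 2D, neither was called (adjusted p = 0.0512 and 0.0606), and with total-count scaling TNFSF10 was not (0.49, adjusted p = 0.0614).

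Between day 7 and day 14, 5 of these 23 genes rose, among them TNFRSF4 (2.06 ± 0.30) and TNFSF10 (1.13 ± 0.18), and 3 fell, among them TNFRSF9 (-1.24 ± 0.27) and TNFRSF19 (-0.70 ± 0.21). The TNFRSF19 call was lost without replicate 2 of 2D (adjusted p = 0.0537), replicate 1 (0.0512) or 3 (0.134) of day 7, or replicate 3 of day 14 (0.0541). The median was 0.18, and 34.8% of the 23 were called, against 28.1% of all tested genes. The counts of called genes depended on single samples: 7 at day 7 became 11 without replicate 1 of day 14, 12 at day 14 became 5, all of them lower, without replicate 3 of 2D, and 8 between the times became 5 without replicate 2 of 2D. With total-count scaling, 2 were higher and 8 lower at day 7, and 2 higher and 7 lower at day 14.

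Below these receptors, 30 of 31 listed adaptors, kinases and ubiquitin enzymes were tested. At day 7, 7 were higher and 3 lower (median 0.15), at day 14 6 and 3 (median 0.15), and 4 rose and 5 fell between the times (median -0.08). Those called were 33.3%, 30% and 30% of the 30 tested in the 3 contrasts, against 43.4%, 36.2% and 28.1% of all tested genes. RIPK1, the kinase of the TNF receptor complex, rose at both times (1.46 ± 0.16 and 1.11 ± 0.16). CHUK encodes the kinase IKK-alpha of the noncanonical NF-kappa-B pathway and was at 14.6, 17.9 and 16.8 CPM in 2D, 48.9, 76.3 and 53.0 at day 7 and 24.4, 34.1 and 39.0 at day 14 (1.85 ± 0.22 at day 7 and 0.98 ± 0.21 at day 14, adjusted p = 4.63e-05 and 0.00348). MAP3K8, a kinase of the ERK branch, was lower at both times (-1.38 ± 0.17 and -0.90 ± 0.16), and so was TRAF5 (-0.90 ± 0.18 and -0.89 ± 0.18). TRADD, an adaptor of TNFR1, rose at day 14 (0.93 ± 0.17) and differed from 2D by 0.18 ± 0.17 at day 7.

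TRAF1 and MAP3K14, which encodes the kinase NIK, were higher than in 2D at day 7 (1.13 ± 0.16 and 1.06 ± 0.15) and fell after it (-0.88 ± 0.16 and -0.71 ± 0.15). TRADD (0.75 ± 0.17) and TAB2 (0.67 ± 0.17) rose after day 7, the latter without a call when replicate 3 of day 7 was left out (0.58, adjusted p = 0.0553). The 9 signalling genes called at day 14 became 5 without replicate 2 of 2D, and the 9 between the times became 4 without replicate 2 and 5 without replicate 3 of day 7. Under total-count scaling, 5 were higher and 4 lower at day 7, and 3 higher and 3 lower at day 14.

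Of 8 proteases and regulators that release or process members at the membrane, 6 were tested. At day 7, 3 rose and 0 fell (median 0.46; 1 was lower at an unadjusted p under 0.05, and 0 were lower with DESeq2), and at day 14 3 rose and 1 fell (median 0.47), so that 50% and 66.7% were called, against 43.4% and 36.2% of all tested genes. SPPL2A, an intramembrane protease that cuts TNF within the membrane, rose at both times (0.85 ± 0.14 each). FURIN, which processes BAFF, rose by 1.30 ± 0.29 and 1.64 ± 0.29. FURIN stood at 46.7 CPM in replicate 1 of day 14 and at 18.6 and 22.0 CPM in the other day 14 samples, and without replicate 1 its day 14 value was 1.13 ± 0.17 (adjusted p = 0.000352). SPPL2B fell at day 14 (-0.47 ± 0.16), but no gene of the list was called lower without any 1 of the 2D samples, without replicate 3 of day 14 or without a filter. Between the times, 0 were called by edgeR, 0 had an unadjusted p under 0.05 and 0 were called by DESeq2 (median -0.05). The 3 protease calls at day 7 became 5 without replicate 1 of day 14, and with total-count scaling 2 were higher and 1 lower.

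Of 27 genes that CD40 or TNF can induce in B cells, 26 were tested: 9 were higher and 4 lower at day 7 (median 0.14), 11 and 3 at day 14 (median 0.38), and 6 rose and 4 fell between the times (median 0.06). Those called were 50%, 53.8% and 38.5% of the 26 tested, against 43.4%, 36.2% and 28.1% of all tested genes. CCL22, a chemokine that draws T cells, was at 59.9, 60.1 and 46.1 CPM in 2D, 515, 828 and 556 at day 7 and 80.7, 167 and 185 at day 14. It rose at day 7 (3.51 ± 0.30, adjusted p = 6.76e-06) and fell after it (-2.14 ± 0.28, adjusted p = 0.000372), as TNF did, but was still above 2D at day 14 (1.38 ± 0.28, adjusted p = 0.00222). LMNA, which encodes lamin A/C, rose at both times (1.93 ± 0.17 and 1.38 ± 0.17), and BCL2L1, which encodes the survival protein BCL-XL, rose at both times as well (1.52 ± 0.19 and 1.32 ± 0.19). BCL2A1, another survival gene of the NF-kappa-B pathway, fell at day 7 (-1.28 ± 0.18), JUNB was lower at both times (-0.76 ± 0.12 and -0.60 ± 0.12), and so was EBI3 (-0.77 ± 0.14 and -0.88 ± 0.14).

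From day 7 to day 14, the chemokine genes CCL4 (1.28 ± 0.17) and CCL3 (1.22 ± 0.21) rose and CD83 (-0.66 ± 0.16) fell. The 10 inducible genes called between the times became 6 without replicate 2 of day 7. With total-count scaling, 7 were higher and 6 lower at day 7, and 8 and 5 at day 14.

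**Figure D4:**
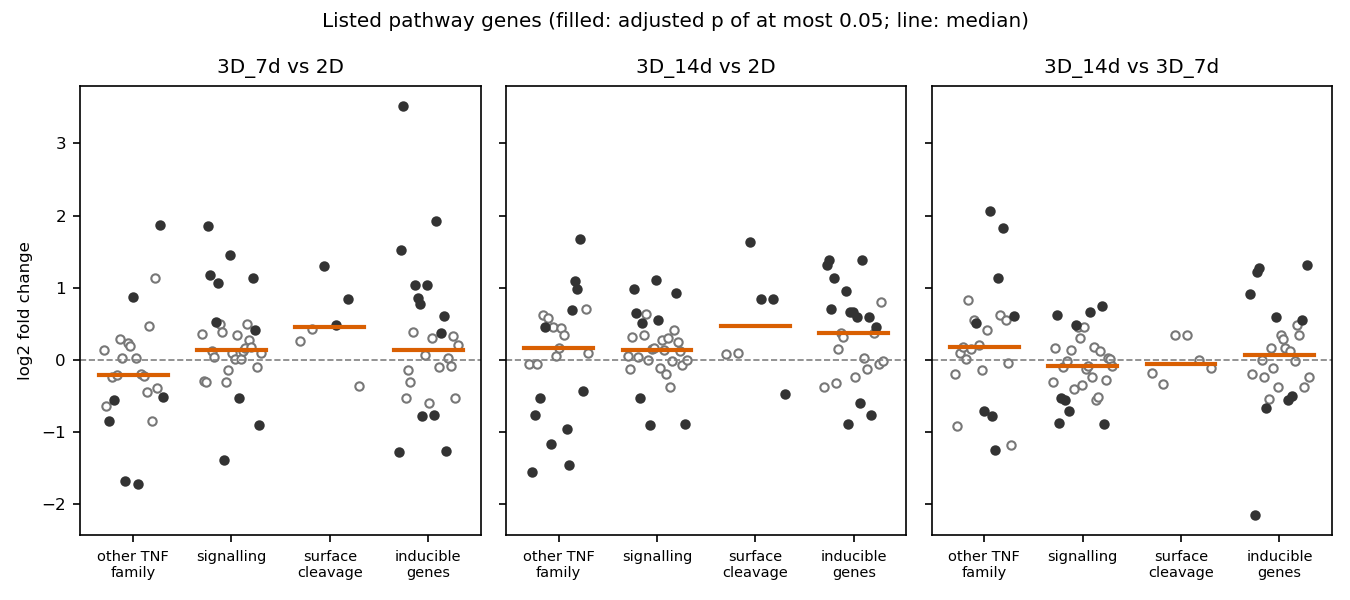
Log2 fold changes of the tested genes of the 4 lists in the 3 contrasts; each point is 1 gene, filled points passed an adjusted p of 0.05, and the line is the median of the list. Every list held genes on both sides of zero in each contrast, and CCL22 was the highest point at day 7 and the lowest between day 7 and day 14.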

How the data were processed

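The 9 samples were grouped by the culture method and time in their labels. The deposited values were raw read counts per gene symbol, without normalization, with the summed exon length of each gene: per the labels and methods, the authors trimmed single reads of low-input SMART-Seq libraries with Trimmomatic (version 0.39), aligned them to GRCh38 with STAR (version 2.5.3a) and counted them per gene with featureCounts (version 1.6.4). The strand setting and the treatment of reads with several alignments are not given in the sources used here.

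A gene was tested if its CPM exceeded 1 in 3 or more samples. In R (version 4.3.3), edgeR (version 4.0.16) with TMM factors was fitted to all 9 samples with 1 coefficient per group, and the quasi-likelihood test was applied to 3 contrasts, with Benjamini-Hochberg adjustment over 13463 genes and a threshold of 0.05. Standard errors were taken from the log2 fold change and its F statistic. CPM and RPKM used the same factors, and log2 CPM a prior count of 2. An exact permutation test of 3 against 3 samples cannot go below 0.1. On average over the tested genes, the spread between samples of a group exceeded that of counting alone. The pipeline was tested on simulated counts with changes placed in the day 7 group alone, and the outcome is not reported here.

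The members and the 4 gene lists were chosen with earlier results of these data known. Named genes were all members, the 2 genes with the smallest p in each direction of each list and contrast, 6 neighbors of LTA, TNF and LTB, and the 3 genes most correlated with the member of smallest p at each time. Of the 37 superfamily genes listed, 36 were in the table, all but LTBR. The summed level of the B-cell markers is not reported here. Alternatives were DESeq2's size factors, total counts, DESeq2's Wald test (version 1.42.0), filterByExpr or no filter, a fit to the 6 samples compared, blocking on replicate number and leaving out each sample. Leaving out samples and total-count scaling for the single list genes and neighbors, and the day 14 order of the members without replicate 1, were chosen after seeing the data. For promoter windows, the RefSeq start nearest an exon start of the table was used.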

Additional observations from a re-analysis of the deposited data

Results flagged for a closer look

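For 4 genes, the 3D cultures at day 14 differed from those at day 7 (edgeR's quasi-likelihood test, 3 samples against 3). The labels give no day for the conventional cultures. Whether the effect of 3D culture itself changed with time was therefore not tested. The log2 fold change of day 14 over day 7 was -0.70 for TNF (adjusted p = 0.0042), 0.97 for CD27 (0.00142), 1.08 for CD70 (0.00115) and 1.04 for TNFRSF13C (0.000467), and in each gene the samples of the groups did not overlap. Without replicate 1 of day 14 these were -0.76, 0.81, 0.87 and 0.97. Groups of 3 samples were not tested for outlying samples.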

How the results depend on the processing

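The 30 member fold changes were recomputed under 16 alternatives each: of 480 values, 445 kept direction and side of the threshold, 21 lost the call, 9 gained it and 5 changed sign. LTA, LTB and CD27 kept their calls against 2D in every alternative, with ranges at day 7 of 1.57 to 1.77, 2.16 to 2.37 and 0.86 to 1.03, and at day 14 of 1.33 to 1.68, 2.43 to 3.10 and 1.78 to 2.08. The values that changed sign, none of them called, were TNF at day 14 against 2D (-0.09, total counts), TNFRSF13C at day 14 against 2D (0.06, without replicate 2 of day 14) and TNFRSF1B between the times (-0.01 with total counts, -0.01 without a filter and -0.27 without replicate 2 of day 14). With each sample left out, these values of TNFRSF13C ranged from -0.12 to 0.06 and those of TNFRSF1B from -0.27 to 0.22. The cause was not tested. The lowest level of a member was 214 reads, in TNFSF13B, and the part of counting noise in its spread was not tested.

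With only the 6 samples of a contrast, which estimates the spread from fewer samples, the calls became 11 in the other superfamily genes, 17 in signalling and 6 in the surface proteases at day 7, and 5 in the other superfamily genes between the times. With each sample left out, calls in the other superfamily genes ranged from 5 to 11 at day 7, 5 to 14 at day 14 and 5 to 11 between the times. Signalling genes ranged from 7 to 13, 5 to 13 and 4 to 13, surface proteases at day 7 from 2 to 5, and inducible genes between the times from 6 to 12. GENCODE 44 exon lengths gave median LTB to LTA ratios of 0.489, 0.697 and 1.07.

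For same-numbered samples, the 9 correlations of their deviations from the group means ran from -0.10 to 0.185, and 2 exceeded 0.1. Those between 2D and day 14 were all positive (0.093 to 0.185), and the others were all negative (-0.10 to -0.005). A shared origin of same-numbered samples was not tested. With the replicate number as a block, 8, 3 and 4 members were called in the 3 contrasts, TNFRSF1B at day 14 being lost (0.49, adjusted p = 0.0596), and no other call of a member changed.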
